A study of Mus musculus with 17 samples.

Results

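Genes of natural killer (NK) cells were followed in whole lung from Clic4 KO (knockout) mice and from wild-type (WT) mice. The set holds 33 genes, chosen by symbol from a list of NK receptors, transcription factors and effector genes with the granzymes left out. All 33 were found among the 54146 genes of the files, and 32 of them passed the filter on low counts, while Ifng did not. Klra8 passed it only through WT libraries, where its level was highest, so its negative values below are no separate support. Bulk lung RNA was sequenced in 17 libraries. The KO day 14 group had 5 libraries from mice of 8 weeks, the WT day 14 group 6 libraries of the same age, the KO day 0 group 2 libraries from mice of 6 weeks, and the WT day 0 group 4 libraries of that age. Every group carries the strain label FVB/6DT1; 6DT1 is known as a mammary tumour line of the mouse. The labels give no treatment between day 0 and day 14, and age changed with day. The labels do not say how the knockout allele was made or in which cells it acts. They also do not tie libraries to animals, so p-values here reflect library-to-library spread that may be technical. Group sizes in the series' design text differ from the labels; groups here are those of the labels. Sample titles close with a serial number whose ranges differ between KO and WT, so anything they record cannot be told apart from genotype.

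NK cells are innate lymphocytes that kill virus-infected and tumour cells without prior sensitisation. They weigh signals from activating receptors, such as those encoded by Ncr1 and Klrk1, against inhibitory receptors that bind MHC class I molecules. The latter include some, but not all, members of the Ly49 (Klra) family and the heterodimer of the Klrc1 and Klrd1 products. Killing proceeds through perforin and granzymes released from granules or through Fas ligand. In the lung, NK cells sit mainly in the vasculature and are known for restraining tumour cells that arrive by the blood.

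Libraries held 20607811 to 35743830 expected counts. Clic4 measured 335.8 ± 38.7 counts per 1000000 counted (CPM; mean ± SD, n = 5) in KO day 14 lungs, 1043 ± 154 CPM (n = 6) in WT day 14 lungs, 326 ± 2.12 CPM (n = 2) in KO day 0 lungs and 943.2 ± 13.3 CPM (n = 4) in WT day 0 lungs, so the KO level was 32.2% of WT at day 14 and 34.6% at day 0. Markers of alveolar type 1 cells, alveolar type 2 cells and lung endothelium were present in all groups, and no gene of these 3 lists was at 0 in all libraries of a group. Replicate numbers below only name libraries and follow the order of accession. Library 3 of the WT day 14 group had the highest value of all 17 libraries in 15 of the 32 NK genes, and library 4 of the WT day 0 group in 14. Library 2 of the KO day 0 group had the lowest value in 14 of them, and library 2 of the KO day 14 group in 11. Where leaving 1 of these libraries out moves a KO over WT fold change of 11 genes by over 1.5 times, both values are given. The same holds for the median over all members and for their count by unadjusted p. Values for gene roles, for other lists and for groups that did not overlap are for all libraries only.

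NK genes stood lower in the KO lungs at both days, but no single gene passed the test. At day 14, 31 of the 32 genes had a negative log2 fold change, KO over WT, against 49.7% of all 19557 genes tested, and the median was -0.53. At day 0, 31 of 32 were negative again, against 49.7% of all genes, and the median was -0.98. The median over all genes tested lay within 0.01 of 0 at either day. The 32 genes share libraries and many varied alike, so they do not count as 32 separate results. They were also chosen with earlier results of these data known. By edgeR's quasi-likelihood test with Benjamini-Hochberg adjustment over all genes, 0 of the 32 were called at an adjusted p under 0.05 at day 14, where 0.107% of all genes were, and 0 at day 0, where 0.0256% were. DESeq2 called 0 of them at either day, beside 0.558% of all genes at day 14 and 0.133% at day 0, and limma-voom 0 as well, beside 0.0818% and 0.0153%. Below an unadjusted p of 0.05, 8 of the 32 were lower at day 14 (4.03% of all genes) and 18 at day 0 (3.59%). Every KO library lay below every WT library in 1 of the 32 at day 14 (0.394% of all genes) and in 21 at day 0 (9.09%). Bulk RNA cannot tell fewer NK cells from less RNA of these genes per cell.

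**Figure D1:**
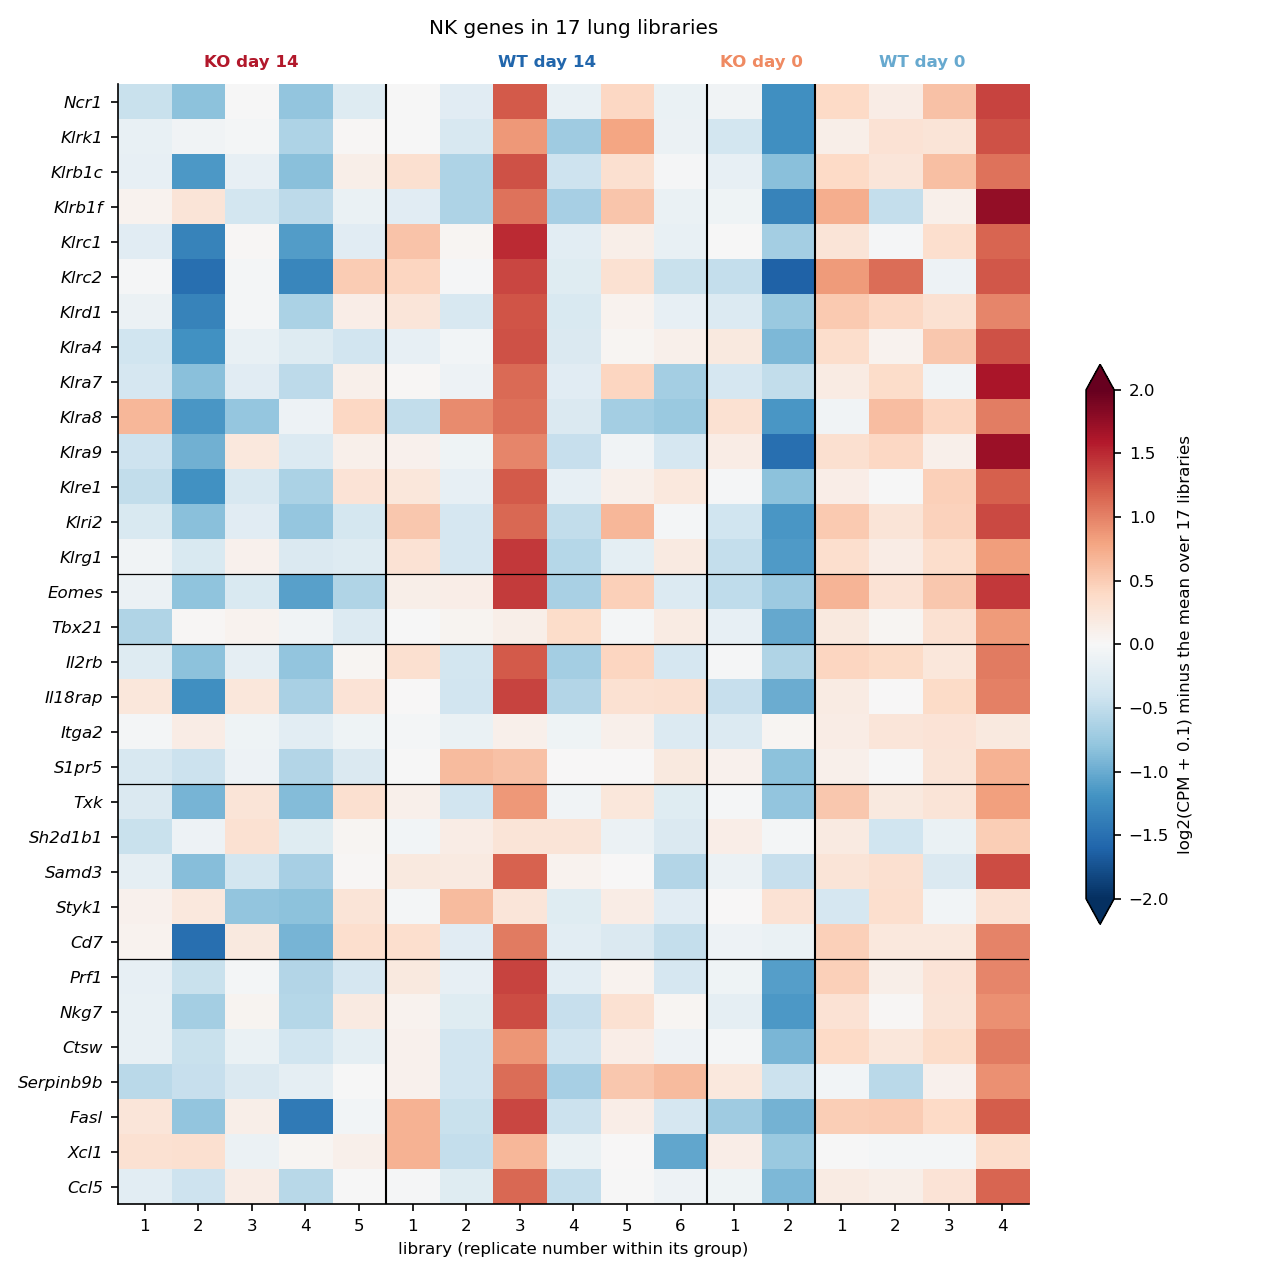
Level of the 32 NK genes tested in each of the 17 libraries, as log2(CPM + 0.1) minus the gene's mean over all libraries; columns are libraries by group, and black lines part groups and gene roles. Library 3 of WT day 14 and library 4 of WT day 0 form red columns, with the highest value of all libraries in 15 and 14 genes, and library 2 of KO day 0 a blue column, with the lowest value in 14 genes.

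Many of the genes varied alike from library to library, as the heat map shows. The summed level of the members without Itga2 was 116 to 189.3 CPM in KO day 14 lungs (median 167.6), 144.2 to 427.2 CPM in WT day 14 lungs (median 192.7), 103.5 and 170.6 CPM in the KO day 0 lungs, and 213.9 to 398.4 CPM in WT day 0 lungs (median 236). These sums overlapped between KO and WT at day 14 and did not overlap at day 0. Itga2 was kept out of the sum because it alone gave 66.6 to 98 CPM per library. Without library 2, the KO day 0 group is a single library, and the median log2 fold change at day 0 was then -0.59, with 1 of 32 genes lower at an unadjusted p under 0.05 instead of 18, where 4.49% of all genes were; the lone library is taken in the model to vary like the other groups. Without library 4 of WT day 0 the median was -0.73, with 9 such genes of 31 (2.95% of all genes). Without library 3 of WT day 14 the day 14 median was -0.25, with 3 such genes of 31 instead of 8 of 32 (3.13% of all genes), and the log2 fold change shrank by over 1.5 times in 26 of the 31. Without library 1 of KO day 14, 4 of 32 were such genes at day 14 (4.56% of all genes). Over all alternative fits, the day 14 count was 3 to 5 in 6 of them and 7 to 11 in the other 19.

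The 14 NK receptor genes were negative at both days, with a median log2 fold change of -0.65 at day 14 and -1.24 at day 0. Of these, 5 were lower at an unadjusted p under 0.05 at day 14 (4.03% of all genes) and 10 at day 0 (3.59%), and none was called by edgeR. Their summed level was 27.1 to 47.1 CPM in KO day 14 lungs, against 37.3 to 113.1 CPM in WT day 14 lungs, and 23.4 and 42.4 CPM in KO day 0 lungs, against 56.9 to 113.8 CPM in WT day 0 lungs. In mouse genome build GRCm38 (mm10), 12 of them lie in the NK gene complex on chromosome 6 between 128778485 and 130233322, a stretch of 1.46 Mb in which most NK lectin-like receptors are encoded. The 2 outside it are Klrg1 and Ncr1 (chromosome 7, 4337724 to 4345164, plus strand).

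Ncr1 encodes NKp46, an activating receptor used to define NK cells in mice. It measured 7.71, 5.91, 10.5, 6.05 and 8.75 CPM in the 5 KO day 14 libraries, against 8.96 to 24.8 CPM around a median of 10.1 CPM in the 6 WT day 14 libraries. At day 0 it measured 10.1 and 4.47 CPM in the KO lungs, against 14, 11.8, 15.8 and 27.1 CPM in the WT lungs. The groups overlapped at day 14, where 4 of the 5 KO libraries lay below the lowest WT library, and were apart at day 0. The log2 fold change was -0.73 (SE 0.321, edgeR adjusted p = 0.531) at day 14 and -1.23 (SE 0.476, adjusted p = 0.709) at day 0. An exact two-sided permutation test over samples gave p = 0.0433 at day 14 and p = 0.0667 at day 0, the smallest that 15 splits allow. Of the 12 genes tested in this way at day 14, 5 were under 0.05 (Ncr1, Klri2, Tbx21, Eomes and S1pr5). The other 7 gave p from 0.108 (Prf1) to 0.952 (Ifng), and at day 0, 11 gave 0.0667. Klri2 and S1pr5 were among the 12 only because DESeq2 called them in these same libraries, so their p-values are no separate support. The share of all genes under 0.05 by this test was not computed. Without library 3 of WT day 14 the day 14 log2 fold change of Ncr1 was -0.43, and the day 0 one was -1.94 without library 1 of KO day 0 and -0.76 without library 2.

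Klrb1c, which encodes the activating receptor NK1.1, had 7.58, 3.79, 7.58, 4.76 and 9.3 CPM in KO day 14 lungs, against 5.51 to 20.9 CPM around a median of 9.56 CPM in WT day 14 lungs. In the day 0 KO lungs it had 7.59 and 4.73 CPM, against 11.3, 10.1, 13.1 and 18.3 CPM in WT. KO and WT ranges overlapped at day 14 only. Its log2 fold changes were -0.66 (SE 0.334, adjusted p = 0.59) at day 14 and -1.09 (SE 0.493, adjusted p = 0.729) at day 0 by edgeR. Without library 3 of WT day 14 the day 14 value was -0.33. The Klrb1c transcript matched Klrb1a at 92.3% identity over 29% of its length, so part of its reads may be shared.

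Klrk1 encodes NKG2D, the activating receptor for stress-induced ligands. Its level was 6.5, 6.87, 7.05, 4.65 and 7.37 CPM in KO day 14 libraries, against 4.39 to 13.2 CPM around a median of 6.92 CPM in WT day 14 libraries. At day 0, 5.58 and 3.02 CPM were measured in KO and 7.84, 8.86, 8.67 and 17.6 CPM in WT. The day 14 KO values lay inside the WT range, while at day 0 every KO library lay below every WT library. The edgeR log2 fold change was -0.35 (SE 0.302, adjusted p = 0.784) at day 14 and -1.31 (SE 0.459, adjusted p = 0.676) at day 0. The day 14 value was -0.16 without library 3 of WT day 14 and -0.20 without library 5.

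Klri2 encodes a lectin-like receptor that pairs with the Klre1 product. It had 2.03, 1.37, 2.16, 1.44 and 1.98 CPM in KO day 14 lungs, against 1.78 to 5.75 CPM around a median of 3.1 CPM in WT day 14 lungs. The day 0 libraries had 1.91 and 1.08 CPM in KO and 3.71, 3.04, 3.52 and 6.48 CPM in WT. The edgeR log2 fold change was -0.87 (SE 0.301, adjusted p = 0.394) at day 14 and -1.48 (SE 0.451, adjusted p = 0.619) at day 0. Its partner Klre1 stood at -0.76 (SE 0.318) and -0.92 (SE 0.462) on the log2 scale at day 14 and at day 0.

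Among the receptors for the nonclassical MHC molecule Qa-1, Klrc2, the activating NKG2C, had the lowest day 0 fold change of all members. It measured 0.208 to 1.14 CPM in KO day 14 lungs, against 0.544 to 2.1 CPM in WT day 14 lungs, and 0.529 and 0.186 CPM in KO day 0 lungs, against 1.47, 1.8, 0.711 and 1.97 CPM in WT day 0 lungs. The log2 fold change at day 0 was -2.03 (SE 0.691, edgeR adjusted p = 0.661), or 24.4% of WT, on 20 counts over both KO libraries and 187 over the 4 WT libraries. Klrc1, the inhibitory NKG2A, stood at -0.96 (SE 0.361) at day 14 and -0.84 (SE 0.52) at day 0. Klrd1, the CD94 chain that both pair with, stood at -0.57 (SE 0.31) and -1.08 (SE 0.459). The longest transcripts of Klrc1 and Klrc2 matched each other at 98.9% identity over 59% of Klrc1, so reads may be shared between them and their single values are uncertain.

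The Ly49 genes, of a family with inhibitory and activating receptors, many of them for MHC class I, were low. Klra4 had 0.791 to 1.75 CPM in KO day 14 lungs, against 1.58 to 4.88 CPM in WT, and 1 to 2.26 CPM in KO day 0 lungs, against 2.07 to 4.91 CPM in WT. Klra7, Klra8 and Klra9 stayed below 3 CPM in every library, and Klra8 had no counts in 1 KO day 14 library and 1 KO day 0 library. The 2 highest levels of Klra8 were 0.38 CPM in library 3 of WT day 14 and 0.358 CPM in library 4 of WT day 0. With either of these libraries left out, 31 members passed the filter. Day 14 log2 fold changes of the 4 genes ran from -0.73 (Klra4) to -0.38 (Klra9), and day 0 ones from -1.44 (Klra9) to -0.92 (Klra4). None was called by edgeR. Transcripts of Klra7, Klra8 and Klra9 matched another Ly49 gene or pseudogene at 90.9 to 95.8% identity over 78 to 97% of their length, and Klra4 matched Klra1 at 87.3% over 92%, so their counts are uncertain. Ly49 gene content also varies between mouse strains, and the build is that of another strain than FVB.

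Klrg1, an inhibitory receptor of mature NK cells that binds cadherins, had 1.76 and 1.08 CPM in KO day 0 lungs, against 3.17, 2.77, 3.22 and 4.51 CPM in WT day 0 lungs. Its log2 fold change was -1.26 (SE 0.461, edgeR adjusted p = 0.686) at day 0 and -0.47 (SE 0.301, adjusted p = 0.698) at day 14. Klrb1f, a lectin-like receptor of the NKR-P1 family, stood at -0.30 (SE 0.451) at day 14 and -1.50 (SE 0.679) at day 0, with overlapping groups at both days.

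**Figure D2:**
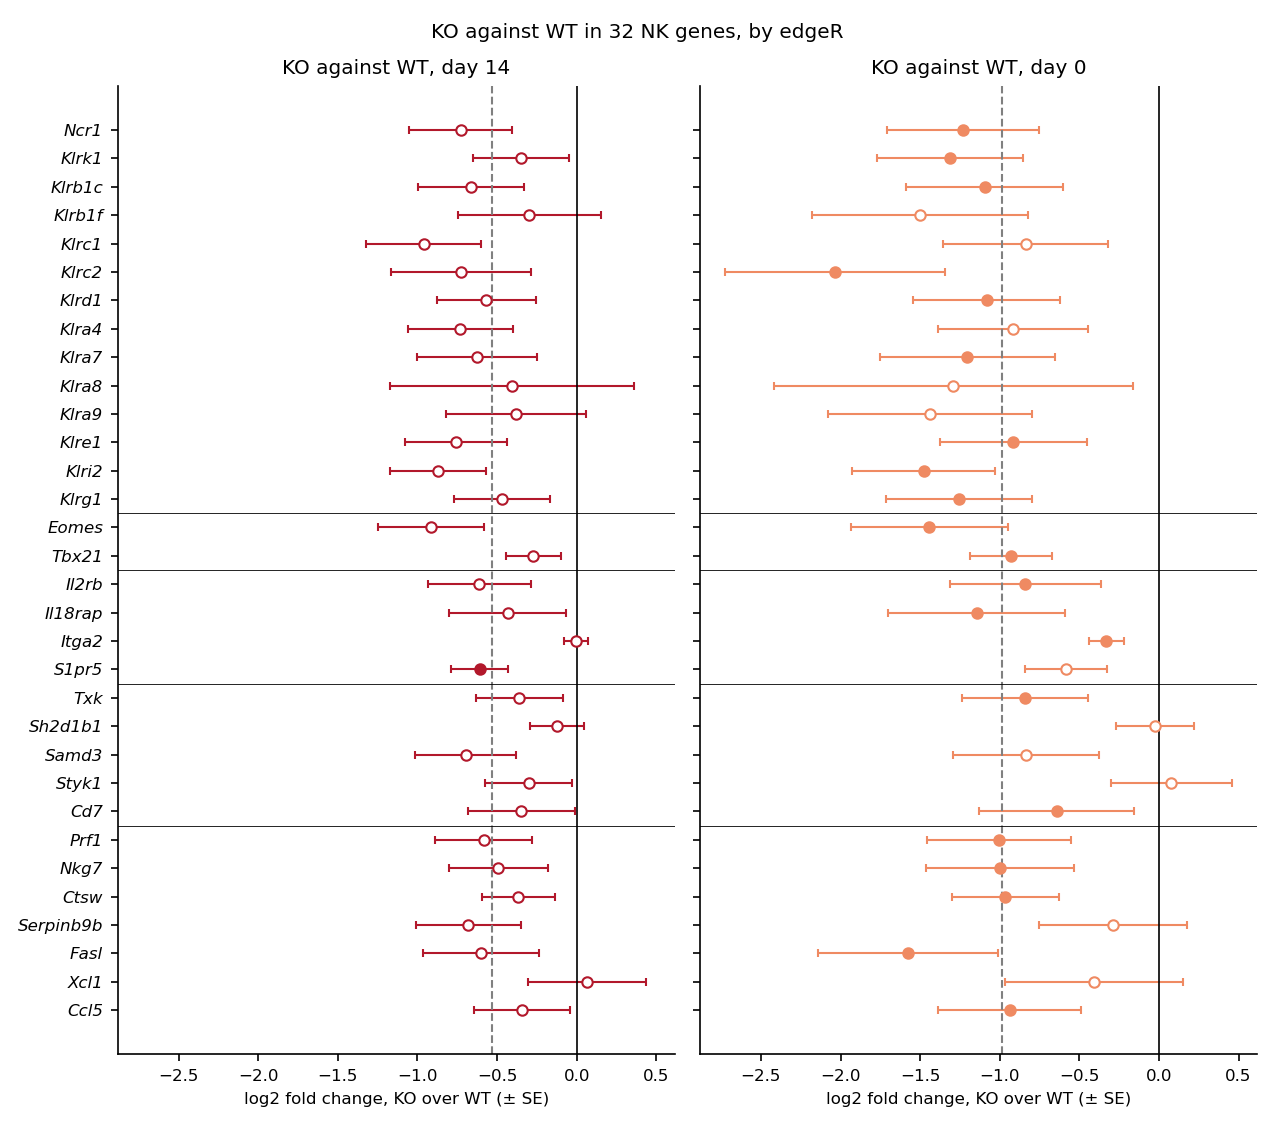
edgeR log2 fold change of KO over WT for the 32 genes tested at day 14 (left) and day 0 (right), with bars of 1 SE; filled points mark genes in which every KO library lay below every WT library, and dashed lines give the medians, -0.53 at day 14 and -0.98 at day 0. Nearly all points lie left of 0 on either day, with 1 filled point at day 14 (S1pr5; 0.394% of all genes) and 21 at day 0 (9.09%).

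Eomes and Tbx21 encode the T-box transcription factors Eomesodermin and T-bet, which NK cells need to mature. Eomes had 3.27, 2, 2.88, 1.62 and 2.32 CPM in KO day 14 lungs, against 2.25 to 9.52 CPM around a median of 3.9 CPM in WT day 14 lungs. At day 0 it had 2.47 and 2.12 CPM in KO and 5.74, 4.38, 5.25 and 9.67 CPM in WT, and the KO values lay under the lowest WT value. The edgeR log2 fold change was -0.91 (SE 0.333, adjusted p = 0.43) at day 14 and -1.44 (SE 0.493, adjusted p = 0.661) at day 0. For Eomes, leaving out library 3 of WT day 14 gave -0.55 at day 14.

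Tbx21 measured 2.73, 4.25, 4.38, 4 and 3.46 CPM in KO day 14 libraries, against 4.06 to 5.41 CPM around a median of 4.45 CPM in WT day 14 libraries. The day 0 values were 3.74 and 2.01 CPM in KO and 4.84, 4.29, 5.21 and 7.67 CPM in WT. The spread of Tbx21 among the WT day 14 libraries was narrow, and library 3, which was highest in 27 of 32 members within that group, was not highest in Tbx21. The log2 fold change was -0.27 (SE 0.175, adjusted p = 0.697) at day 14 and -0.93 (SE 0.26, adjusted p = 0.581) at day 0 by edgeR. The exact two-sided permutation test at day 14 gave p = 0.0411 for Tbx21 and p = 0.0454 for Eomes. Tbx21 had -0.17 at day 14 without library 1 of KO day 14, and at day 0 -1.45 without library 1 and -0.55 without library 2 of KO day 0.

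T-box factors bind DNA at the core motif GGTGTGA or its reverse complement TCACACC. Promoter windows of RefSeq on GRCm38.p6, from 250 bases before to 50 bases after the transcription start, were present for 25 members with 31 windows. On either strand, 3 windows of 3 members held the motif (9.68%), against 1307 of all 32851 windows (3.98%). A match describes the letters only. The 250 bases before the start are printed for these 3 members, Nkg7 (granule protein), Samd3 (lymphoid gene) and Xcl1 (chemokine), with the motif in capitals, and for Ncr1, whose window lacks it, as the marker gene of the set. The motif begins 13 bases before the start of Nkg7 and 188 before that of Xcl1 on the gene's strand, and 15 before that of Samd3 on the opposite strand.
Ncr1 (chr7:4337465-4337714, plus strand): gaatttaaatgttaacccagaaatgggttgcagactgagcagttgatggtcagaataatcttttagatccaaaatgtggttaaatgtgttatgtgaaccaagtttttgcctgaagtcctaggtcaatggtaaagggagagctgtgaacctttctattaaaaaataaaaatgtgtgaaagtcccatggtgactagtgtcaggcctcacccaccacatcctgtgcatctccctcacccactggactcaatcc
Nkg7 (chr7:43436888-43437137, plus strand): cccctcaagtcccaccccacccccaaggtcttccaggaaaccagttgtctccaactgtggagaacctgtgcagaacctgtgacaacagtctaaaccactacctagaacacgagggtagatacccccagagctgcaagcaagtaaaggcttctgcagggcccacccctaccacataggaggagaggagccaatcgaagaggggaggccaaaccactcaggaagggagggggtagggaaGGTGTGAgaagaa
Samd3 (chr10:26229457-26229706, plus strand): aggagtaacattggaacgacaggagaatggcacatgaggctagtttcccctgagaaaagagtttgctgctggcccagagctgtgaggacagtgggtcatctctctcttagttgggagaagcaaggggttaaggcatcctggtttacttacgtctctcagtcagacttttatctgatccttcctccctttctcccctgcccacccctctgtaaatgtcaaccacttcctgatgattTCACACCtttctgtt
Xcl1 (chr1:164935523-164935772, minus strand): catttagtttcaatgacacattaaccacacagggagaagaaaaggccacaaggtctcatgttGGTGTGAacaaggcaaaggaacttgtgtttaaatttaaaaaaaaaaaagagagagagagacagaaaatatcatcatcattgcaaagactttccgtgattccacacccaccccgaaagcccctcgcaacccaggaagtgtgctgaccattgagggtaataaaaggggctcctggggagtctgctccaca

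Of the 4 cytokine, adhesion and homing receptors, S1pr5 was the member whose KO and WT libraries were apart at day 14. S1pr5 encodes a sphingosine-1-phosphate receptor that lets NK cells leave bone marrow and lymph nodes. It had 4.5, 4.16, 5.23, 3.71 and 4.6 CPM in KO day 14 lungs, against 5.6 to 8.76 CPM around a median of 6.08 CPM in WT day 14 lungs. At day 0 it had 6 and 3.16 CPM in KO and 6.03, 5.63, 6.74 and 9.17 CPM in WT, where the higher KO library lay among the WT values. The log2 fold change was -0.61 (SE 0.18, adjusted p = 0.318) at day 14 and -0.58 (SE 0.26, adjusted p = 0.729) at day 0 by edgeR. The exact two-sided permutation test gave p = 0.00216 at day 14, the smallest that 462 splits allow, and p = 0.2 at day 0. S1pr5 was put to this test only because DESeq2 called it in these same libraries. At day 0 the value rests on which KO library is kept, with -1.12 without library 1 and -0.20 without library 2.

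Il2rb encodes the receptor chain shared by interleukin 2 and interleukin 15, the cytokine on which NK cells depend. Its level was 24.6, 16.8, 26.2, 17.1 and 30.3 CPM in KO day 14 lungs, against 18.4 to 69.3 CPM around a median of 30.1 CPM in WT day 14 lungs. In the day 0 lungs it was 29.1 and 19.5 CPM in KO, against 39.8, 38.8, 34.5 and 60.8 CPM in WT. KO and WT overlapped at day 14 and were apart at day 0, with a log2 fold change of -0.61 (SE 0.323, edgeR adjusted p = 0.616) at day 14 and -0.84 (SE 0.472, adjusted p = 0.785) at day 0. The day 14 value fell in size to -0.29 without library 3 of WT day 14.

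Il18rap, the accessory chain of the interleukin 18 receptor, ranged over 7.99 to 22.6 CPM in KO day 14 lungs and 12.5 to 48.1 CPM in WT day 14 lungs, and had 13.6 and 9.42 CPM in KO day 0 lungs, against 18.8 to 37.8 CPM in WT day 0 lungs. Its log2 fold change was -0.43 (SE 0.369) at day 14 and -1.14 (SE 0.556) at day 0. Itga2 encodes integrin alpha 2 (CD49b), which NK cells carry and which platelets and epithelial cells express too. It behaved unlike the other members: it had 69.6 to 89.4 CPM in KO day 14 lungs and 67 to 87.1 CPM in WT day 14 lungs, with a log2 difference of -0.0038 (SE 0.075). At day 0 it had 66.6 and 83 CPM in KO, against 89.8 to 98 CPM in WT (-0.33, SE 0.108, edgeR adjusted p = 0.619).

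The 5 signalling genes had smaller values, with a median log2 fold change of -0.35 at day 14 and -0.64 at day 0. Txk, a kinase of the Tec family, stood at -0.36 (SE 0.272) at day 14 and -0.84 (SE 0.398) at day 0, and its KO and WT libraries were apart at day 0. Cd7, a surface glycoprotein of T and NK cells, had 4.34 and 4.28 CPM in KO day 0 lungs, below the 5.45 to 9.46 CPM of WT day 0 lungs, and a log2 fold change of -0.64 (SE 0.487). Samd3, a gene of lymphoid cells, stood at -0.70 (SE 0.32) at day 14 and -0.84 (SE 0.46) at day 0. Sh2d1b1, which encodes the adaptor EAT-2 of SLAM-family receptors, and Styk1, a pseudokinase known as NOK, were near 0 at day 0 (-0.027, SE 0.245, and +0.078, SE 0.379) and had -0.12 and -0.30 at day 14. Styk1 was the only member of the 32 with a positive value at day 0. Sh2d1b1 matched its neighbour Sh2d1b2 at 91% identity over 49% of its length, so its counts are uncertain.

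**Figure D3:**
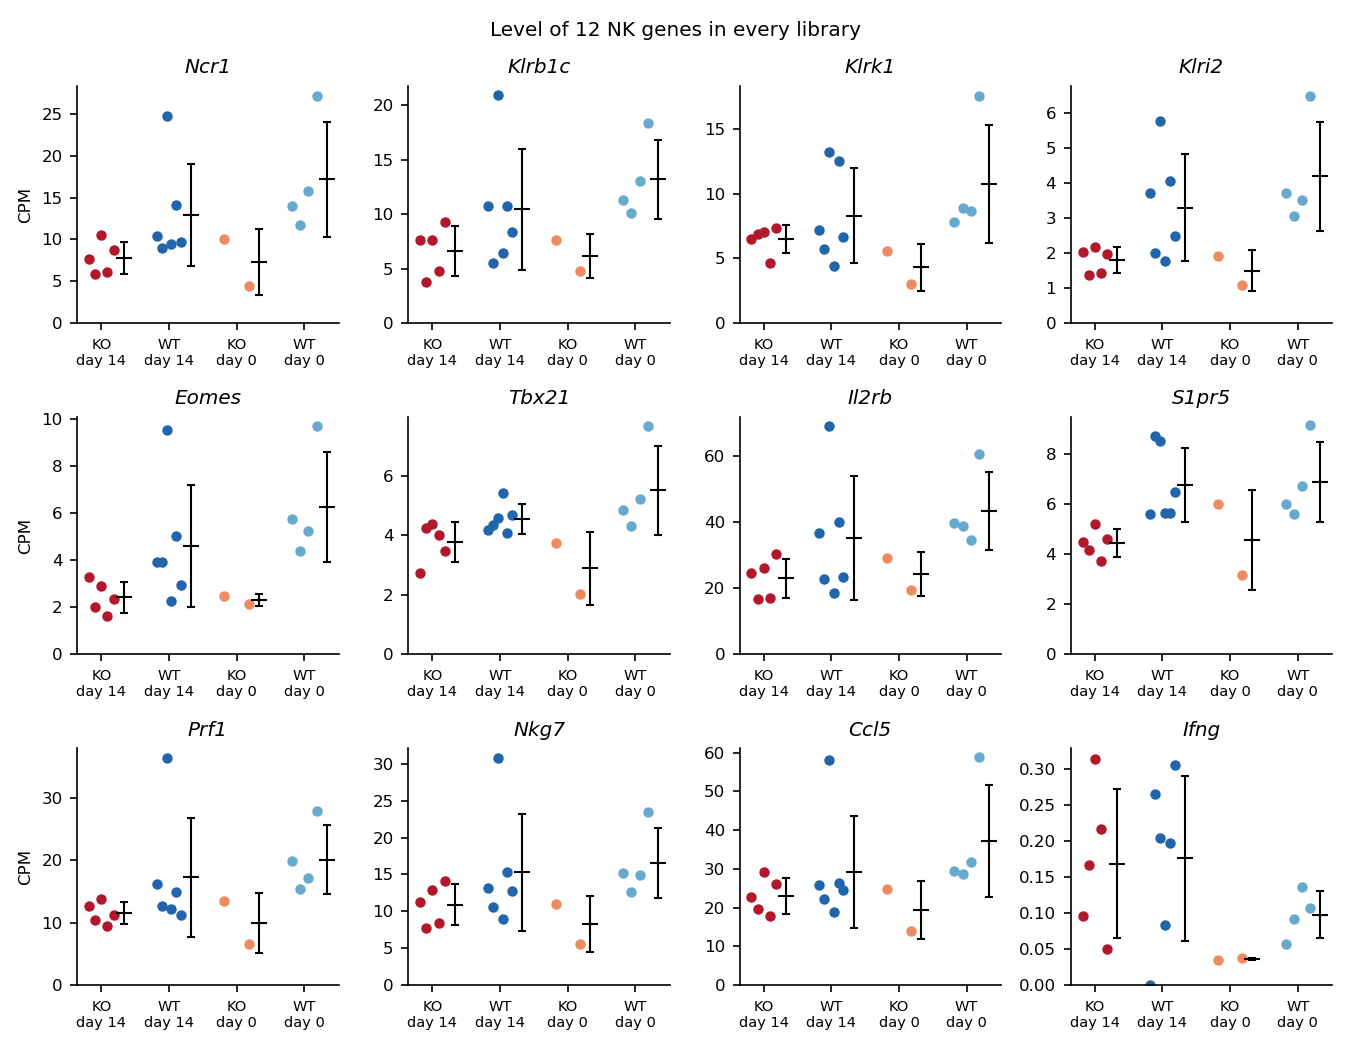
CPM of 12 NK genes in every library, with the mean and SD of each group beside the points; groups run from KO day 14 to WT day 0. KO points lie under all WT points at day 0 in all panels but S1pr5, and at day 14 in S1pr5 alone. Such a gap was found in 9.09% of all genes at day 0, with 2 KO libraries, and in 0.394% at day 14. Ifng had 1 count in each KO day 0 library.

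Effector genes carry out killing and signal to other cells. Of the 8, 7 were tested; 6 of these were negative at day 14 (median -0.49) and all 7 at day 0 (median -0.97), with 0 lower at an unadjusted p under 0.05 at day 14 (4.03% of all genes) and 4 at day 0 (3.59%), and none called by edgeR. Prf1, which encodes the pore-forming perforin, had 12.7, 10.4, 13.8, 9.44 and 11.2 CPM in KO day 14 lungs, against 11.2 to 36.4 CPM around a median of 13.8 CPM in WT day 14 lungs. At day 0 it had 13.4 and 6.51 CPM in KO and 19.8, 15.4, 17.1 and 27.8 CPM in WT. The WT day 14 maximum belongs to library 3, and the other WT day 14 libraries stopped at 16.2 CPM. The log2 fold change was -0.58 (SE 0.305, adjusted p = 0.612) at day 14 and -1.01 (SE 0.452, adjusted p = 0.729) at day 0 by edgeR. Without library 3 of WT day 14 the Prf1 value at day 14 was -0.22, and at day 0 it was -1.62 without library 1 and -0.58 without library 2 of KO day 0.

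Nkg7 encodes a granule membrane protein needed for cytotoxic degranulation. It had 11.2, 7.74, 12.9, 8.39 and 14.1 CPM in KO day 14 lungs, against 8.99 to 30.8 CPM around a median of 13 CPM in WT day 14 lungs, and 11 and 5.55 CPM in KO day 0 lungs, against 15.2, 12.6, 15 and 23.5 CPM in WT day 0 lungs. KO and WT overlapped at day 14 and not at day 0. The edgeR log2 fold change was -0.49 (SE 0.312, adjusted p = 0.696) at day 14 and -1.0 (SE 0.464, adjusted p = 0.735) at day 0. For Nkg7 these were -0.15 at day 14 without library 3 of WT day 14, and -1.58 and -0.59 at day 0 without library 1 and without library 2 of KO day 0.

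Ccl5, a chemokine made by NK cells and by effector T cells, was the member with the highest level per transcript length. It had 22.7, 19.6, 29.2, 17.9 and 26.1 CPM in KO day 14 lungs, against 18.8 to 58.2 CPM around a median of 25.1 CPM in WT day 14 lungs. In the day 0 libraries it had 24.7 and 14 CPM in KO and 29.5, 28.6, 31.9 and 58.9 CPM in WT. Groups overlapped at day 14 and were apart at day 0, and the log2 fold change was -0.34 (SE 0.303, adjusted p = 0.792) at day 14 and -0.94 (SE 0.449, adjusted p = 0.747) at day 0 by edgeR. Ccl5 was close to no change at day 14 without library 3 of WT day 14 (-0.018), and at day 0 it had -1.41 without library 1 and -0.59 without library 2 of KO day 0.

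Fasl, the ligand of the death receptor Fas, had 1.41 and 1.19 CPM in KO day 0 lungs, against 3.37, 3.41, 3.18 and 5.66 CPM in WT day 0 lungs (-1.58, SE 0.564, edgeR adjusted p = 0.676), and -0.60 (SE 0.367) at day 14. The cysteine protease gene Ctsw stood at -0.37 (SE 0.228) at day 14 and -0.97 (SE 0.336) at day 0. Serpinb9b, a serpin related to the granzyme B inhibitor, was -0.68 (SE 0.328) at day 14 and -0.29 (SE 0.466) at day 0. Xcl1, a chemokine that draws cross-presenting dendritic cells, stayed at or below 0.569 CPM in every library and was the only member with a positive value at day 14 (+0.063, SE 0.37).

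Ifng encodes interferon gamma, the cytokine through which NK cells act on macrophages and tumour cells. It had 0.0951, 0.167, 0.313, 0.216 and 0.0495 CPM in KO day 14 lungs, against 0 to 0.306 CPM around a median of 0.201 CPM in WT day 14 lungs. At day 0 it had 0.0353 and 0.0372 CPM in KO and 0.0566, 0.0913, 0.136 and 0.107 CPM in WT. In all, 24 counts fell to the KO day 14 group, 32 to WT day 14, 2 to KO day 0 and 12 to WT day 0. At this depth a difference was not detectable, and no fold change is given.

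Averaged over both days, with equal weight for each day, all 32 genes were negative (50.5% of all genes), with a median log2 fold change of -0.81. edgeR called 0 of them (0.102% of all genes), although 26 were lower at an unadjusted p under 0.05 (4.87%). DESeq2 called 4 of them lower (0.271% of all genes were called lower, 0.696% in either direction). These were Klri2 (-1.18, DESeq2 adjusted p = 0.00321), Eomes (-1.18, 0.00557), Tbx21 (-0.60, 0.0289) and S1pr5 (-0.60, 0.0361). The edgeR adjusted p of the same 4 genes was 0.136, 0.187, 0.187 and 0.188, and limma-voom called 0 of the 32 (0.0818% of all genes). Without library 2 of KO day 0, 8 members in place of 26 were lower at an unadjusted p under 0.05 (6.05% of all genes), and the median was -0.59.

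Between the days, NK genes moved little in KO lungs and leaned lower in WT lungs. In KO, day 14 over day 0, 10 of 32 were negative (47.3% of all genes) and 22 positive, with a median log2 change of +0.16. In WT, 29 of 32 were negative (49.6%) and the median was -0.33. edgeR called 0 of 32 in either, as it did of all genes (0%), and DESeq2 called 0 members beside 0.539% of all genes in KO and 0.669% in WT. Below an unadjusted p of 0.05, 0 members were lower or higher in KO (4.72% and 4.33% of all genes), and 1 member, Itga2, was lower in WT (4.34%). The KO median rests on 2 day 0 libraries: it was +0.64 without library 1 and -0.14 without library 2. The WT count was 19 in place of 1 without library 3 of WT day 14 (4.72% of all genes), where the median was -0.58, and the median was -0.05 without library 4 of WT day 0.

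Of the genes given by library, Ncr1 showed a log2 change, day 14 over day 0, of +0.10 (SE 0.451, edgeR adjusted p = 0.966) in KO and -0.41 (SE 0.327, adjusted p = 0.724) in WT. Klrk1 showed +0.59 (SE 0.44) in KO and -0.37 (SE 0.312) in WT, and Tbx21 +0.38 (SE 0.252) and -0.27 (SE 0.181). Klrg1 was the member in which every KO day 14 library lay above both KO day 0 libraries, a pattern found in 5.59% of all genes; its KO change was +0.65 (SE 0.449, adjusted p = 0.694). Exact two-sided permutation tests of the 12 genes gave p from 0.0952 to 0.952 in KO (21 splits) and from 0.148 to 0.9 in WT (210 splits).

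The KO effect at day 14 minus that at day 0 was positive in 27 of 32 genes and negative in 5 (48.9% of all genes were negative), with a median of +0.51 on the log2 scale. edgeR called 0 of 32 and 0% of all genes, and DESeq2 0 of 32 beside 0.047%. Itga2 (+0.33, SE 0.131) and Tbx21 (+0.66, SE 0.31) were the 2 members higher at an unadjusted p under 0.05 (2.52% of all genes), both at an edgeR adjusted p of 0.988. For S1pr5 the difference was -0.025 (SE 0.312), and it ran from -0.41 to +0.51 as libraries were left out. No member passed the test of this difference.

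**Figure D4:**
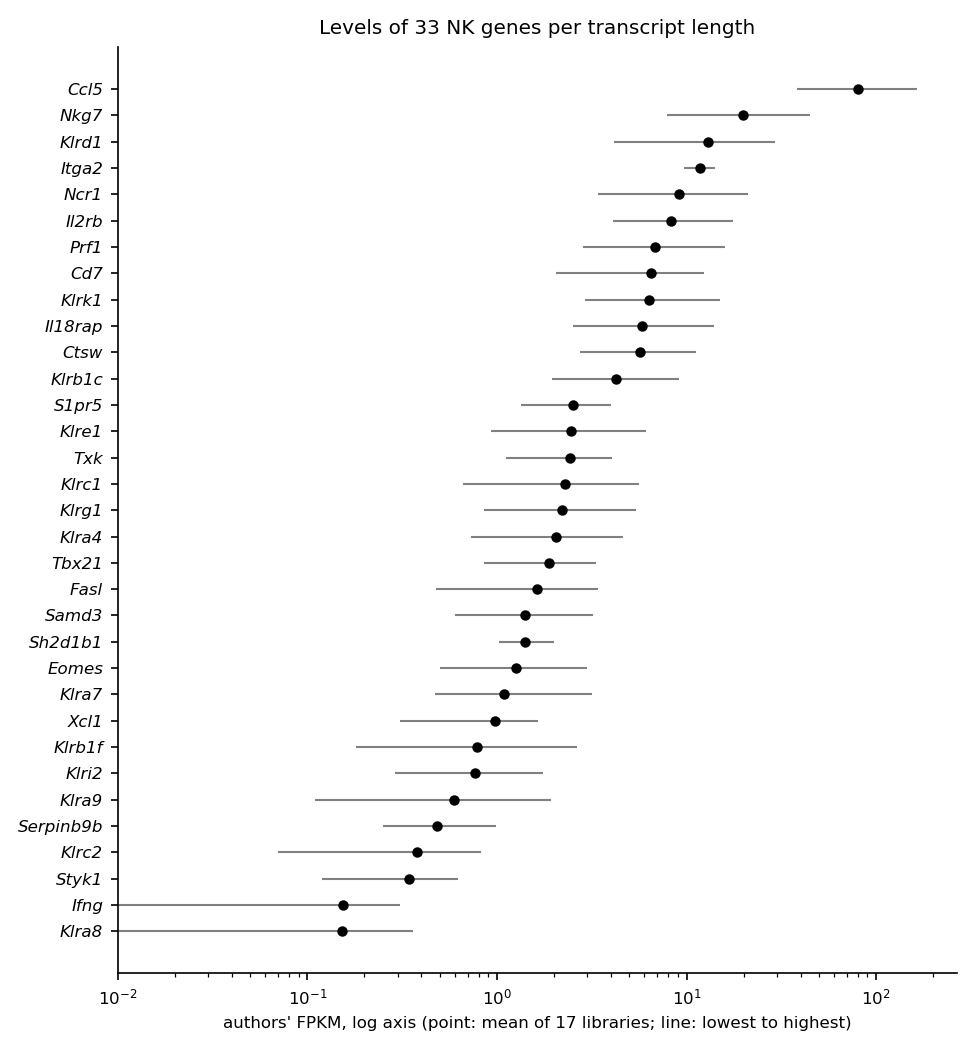
Authors' FPKM of the 33 genes on a log axis, ordered by the mean of 17 libraries (points), with lines from the lowest to the highest library; values under 0.01 are drawn at 0.01. Ccl5 leads at 79.9 FPKM, and Ifng and Klra8 are lowest at 0.154 and 0.153 FPKM.

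Levels were compared between genes in the authors' FPKM, which scale by transcript length. Over the 17 libraries, Ccl5 averaged 79.9 FPKM (38.2 to 164.4), Nkg7 20 FPKM (7.87 to 44.7) and Klrd1 13 FPKM (4.16 to 29.2). Itga2 at 11.8 FPKM, Ncr1 at 9.08 FPKM and Il2rb at 8.25 FPKM followed, then Prf1 (6.83 FPKM), Cd7 (6.53 FPKM) and Klrk1 (6.36 FPKM). The ranges of these neighbours over libraries overlap, so their order is not resolved, while the range of Ccl5 lies above those of all members but Nkg7. Eomes averaged 1.27 FPKM and Tbx21 1.88 FPKM. The lowest were Styk1 (0.342 FPKM), Ifng (0.154 FPKM) and Klra8 (0.153 FPKM).

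After removal of group means, the genes whose log2 CPM was most like that of Ncr1 over the 17 libraries were Ccl5 (Pearson r 0.956, Spearman rho 0.924), Nkg7 (0.952, 0.949), Ctsw (0.95, 0.966) and Prf1 (0.922, 0.87). The least like were Styk1 (r 0.008), Itga2 (r 0.086) and Tbx21 (r 0.472). The median r with Ncr1 was 0.822 over the 31 other members, and 0.612 without the 2 libraries farthest from the middle, library 3 of WT day 14 and library 4 of WT day 0. Over all 496 pairs of members the median r was 0.705, and 0.482 without these libraries. These are descriptions over genes that share libraries.

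Other gene groups moved alongside in some libraries, and their part in the results was not tested. All 19 T cell genes were negative at day 0 (median -0.46), and every KO library lay below every WT library in 11 of them (9.09% of all genes); at day 14 the median was -0.09. Their summed level was 170.2 to 312.5 CPM in KO day 14 lungs, 201 to 350.5 CPM in WT day 14 lungs, 200.5 and 224.6 CPM in KO day 0 lungs and 238.8 to 331.9 CPM in WT day 0 lungs. All 12 B cell genes were negative at day 0 (median -1.0), with 10 of them lower in every KO library (9.09% of all genes), and the median was +0.10 at day 14. B cell sums were 147.4 to 411.2 CPM in KO day 14 lungs, 123.5 to 343.9 CPM in WT day 14 lungs, 123.1 and 225.8 CPM in KO day 0 lungs and 272.1 to 396.4 CPM in WT day 0 lungs. At day 14 the T and B cell medians were within 0.1 of 0, while the NK median was -0.53, or -0.25 without library 3 of WT day 14. The 9 neutrophil genes were all negative at day 14 (median -0.21), with 0 lower at an unadjusted edgeR p under 0.05 (4.03% of all genes). At day 0, 5 neutrophil genes were negative and 4 positive (median -0.08). The median of 49 further NK pathway genes was 0 at day 14. Their list is broader, with adaptors, cytokines and degranulation genes, and is not a list of NK markers. It summed to 2424 to 2685 CPM in KO day 14 lungs and 2402 to 2648 CPM in WT day 14 lungs. The granzyme median was -0.67 with 7 of 7 negative at day 14, and -0.085 with 4 of 7 negative and 0 positive at day 0. Of the 10 granzymes, 6 had no counts in the KO day 0 libraries and 5 none in the WT day 0 libraries. The day 0 median thus rests partly on genes without counts in both groups. Granzyme sums at day 0 were 12.4 and 28 CPM in KO, against 32.4 to 72.5 CPM in WT. Library 3 of WT day 14 had the highest granzyme sum of its group, 83.4 CPM, with 55.4 CPM in library 5. Differences between lists were not tested. The 5 pan-leukocyte genes had medians of -0.05 at day 14 and -0.38 at day 0. edgeR called no gene of the T cell, B cell and pan-leukocyte lists. At day 0 the KO over WT fold change was positive in 6 of 6 alveolar type 2 genes (median +0.24, 3 at an unadjusted p under 0.05, where 3.15% of all genes were higher) and near 0 at day 14 (median +0.02). At day 14 it was negative in 5 of 5 alveolar type 1 genes (median -0.15, 4 at an unadjusted p under 0.05; 4.03% of all genes were lower at that p), which had a median of -0.07 at day 0. The endothelial genes had medians of 0 at day 14 and -0.13 at day 0. Among them Car4, a carbonic anhydrase gene of lung capillaries, was higher in KO at day 14 by edgeR (+0.28, SE 0.0471, adjusted p = 0.018) and over both days (+0.22, SE 0.0408, adjusted p = 0.0487), with 213 to 243.4 CPM in KO day 14 lungs, against 173.6 to 196.7 CPM in WT day 14 lungs.

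Library 2 of KO day 0, the lowest in NK genes, also had the highest sum of adipose genes. The 5 adipose genes summed to 74.9 CPM there, 23.9 CPM in library 1 of that group and 17 to 24.1 CPM in WT day 0 lungs. The 8 genes of innate-like T cells and innate lymphoid cells summed to 317.5 CPM in that library, 112.2 CPM in library 1 and 50.8 to 136.8 CPM in WT day 0 lungs. Zbtb16, named after its values were seen, was the main part of that sum in library 2, with 290.0 CPM there, 89.3 CPM in library 1 and 22.6 to 106 CPM in WT day 0 lungs; it encodes the factor PLZF and is also expressed outside lymphocytes. The adipose gene Ucp1, an uncoupling protein of brown fat, was called by DESeq2 for the average of both days (adjusted p = 0.00992) and not by edgeR (0.187), with 24.2 CPM in library 2 of KO day 0 and at most 6.55 CPM in any other library. Library 3 of WT day 14, the highest in NK genes, was also the highest of its group in T cell genes (350.5 CPM) and in neutrophil genes (552.3 CPM, beside 550.2 CPM in library 6). Its pan-leukocyte sum, 612 CPM, was the highest of its group too, with 429 to 484.8 CPM in the others. The neutrophil list summed to 144.5 to 630.3 CPM in KO day 14 lungs, 180.6 to 552.3 CPM in WT day 14 lungs, 149.8 and 165.7 CPM in KO day 0 lungs and 86.5 to 171.3 CPM in WT day 0 lungs. Between the days in WT, DESeq2 called the neutrophil genes Ngp (+2.62, adjusted p = 0.0184), Camp (+2.24, 0.0221) and Cxcr2 (+1.87, 0.0259) higher at day 14, and edgeR did not (0.285 to 0.304).

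**Figure D5:**
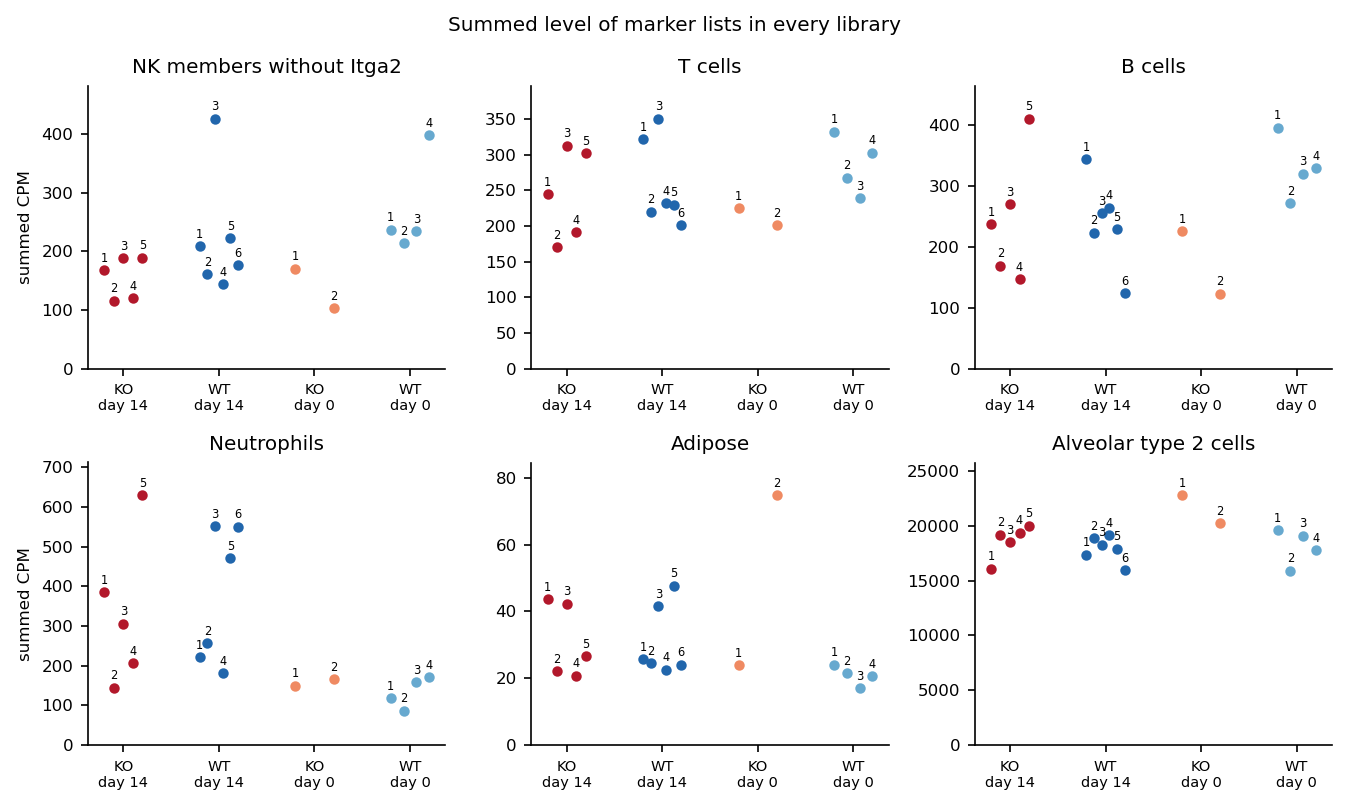
Summed CPM of the NK members without Itga2 and of 5 marker lists in every library; small digits are replicate numbers, and groups run from KO day 14 to WT day 0. NK sums peak in library 3 of WT day 14 (427.2 CPM) and library 4 of WT day 0 (398.4 CPM), and the adipose sum peaks in library 2 of KO day 0 (74.9 CPM).

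Further genes of the NK pathway, taken from a list of textbook members, leaned the same way at day 0 and were evenly split at day 14. Of 56 such genes (other receptors, adaptors, cytokines, transcription factors and degranulation genes) 49 were tested. At day 14, 24 were negative and 25 positive, with a median of 0; at day 0, 40 were negative and 9 positive, with a median of -0.26. In 10 of them every KO day 0 library lay below every WT day 0 library (9.09% of all genes). edgeR and DESeq2 called none of the 49 at day 14 and at day 0, and 1 at day 14 and 6 at day 0 were lower at an unadjusted p under 0.05, where 4.03% and 3.59% of all genes were. In KO between the days, DESeq2 called Tnfsf10, the death ligand TRAIL, higher at day 14 (+0.78, adjusted p = 0.00883), where edgeR gave 0.211. Of 14 ligands of NK receptors, 9 were tested, with medians of -0.05 at day 14 and -0.12 at day 0 and none called between KO and WT. Cdh1, a ligand of Klrg1, was lower at day 14 than at day 0 in KO by DESeq2 (-0.24, adjusted p = 0.00811), where edgeR gave 0.211. The granzymes summed to 23.7 to 34.4 CPM in KO day 14 lungs, 25.5 to 83.4 CPM in WT day 14 lungs, 12.4 and 28 CPM in KO day 0 lungs and 32.4 to 72.5 CPM in WT day 0 lungs, and none of the 7 tested was called by edgeR.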

How the data were processed

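RNA of whole mouse lung was measured in 17 libraries: 5 KO and 6 WT at day 14, 2 KO and 4 WT at day 0. The authors deposited expected counts per gene, the unit of RSEM, for 54146 genes; the submitters' processing notes list STAR 2.5.3, RSEM 1.3.0, limma 3.38.3 and mm10, with no roles given. The unit was taken from these notes and the values, of which 13.86 to 17.14% per library are not whole. FPKM per gene were also deposited by the authors in a joint table and were used for levels between genes and in alternatives. All 33 symbols matched gene IDs of GENCODE M21 (GRCm38).

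Expected counts were rounded, filtered with filterByExpr (19557 genes left) and scaled by TMM (0.977 to 1.01). A single edgeR 4.0.16 quasi-likelihood model with 4 groups and no covariate was fitted, with two-sided tests, Benjamini-Hochberg adjustment over all genes and a threshold of 0.05; SE is the absolute log2 fold change over the square root of F. DESeq2 1.42.0, limma-voom (limma 3.58.1), other scaling, filters and units, and leaving out each library were the alternatives. Exact permutation tests used log2 CPM (prior count 2). Transcripts of the members were compared with all others by BLAST 2.17.0, and a near-identical copy was a match of at least 90% identity over 50% of the length. The code was tested on simulated data.

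All members are named; values are given by library, or as lowest, median and highest for the 6 WT day 14 libraries, for Ncr1, Klrb1c, Klrk1, Tbx21, Eomes, Il2rb, Prf1, Nkg7, Ccl5, Ifng and any member called by edgeR or DESeq2, and for others by range or where a result turns on them. Genes of other lists were to be named only if called or if their level moved with a result of the members. Members and lists were chosen with earlier results of these data known. The number of libraries limits precision, and no batch is given in the labels.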

Additional observations from a re-analysis of the deposited data

Results flagged for a closer look

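Library 3 of WT day 14 and library 4 of WT day 0 stood apart from the others of their group, by a test of the gap between the extreme library and its nearest neighbour at the 95% level. In library 3 of the 6 WT day 14 libraries, Ncr1 was at 24.8 CPM (next 14.1), Klrb1c at 20.9 CPM (next 10.7), Prf1 at 36.4 CPM (next 16.2), Nkg7 at 30.8 CPM (next 15.4) and Ccl5 at 58.2 CPM (next 26.2). The members without Itga2 summed there to 427.2 CPM, with 223 CPM in the next library. In library 4 of the 4 WT day 0 libraries, Klrk1 was at 17.6 CPM (next 8.86), Ccl5 at 58.9 CPM (next 31.9), and the sum at 398.4 CPM (next 237.4). These 9 came from 39 groups tested, of which chance flags about 1 in 20, and the genes share libraries. No KO library was picked out in the KO day 14 group; the KO day 0 group, with 2 libraries, could not be tested.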

How the results depend on the processing

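No paired analysis was possible because the labels give no replicate numbers that groups share; the numbers used here follow accession order. Across the alternatives run, every KO against WT log2 fold change of the 11 members given by library and tested kept its sign, though leaving out 1 library moved many by over 1.5 times, as given beside each gene, and edgeR and limma called 0 members. DESeq2 called 4 for the average of both days (Klri2, Eomes, Tbx21 and S1pr5) and 0 in the other comparisons. The median log2 fold change over members, as libraries were left out in turn, ran from -0.63 to -0.25 at day 14, from -1.44 to -0.59 at day 0, from -1.0 to -0.59 for the average, from -0.14 to +0.64 for day 14 over day 0 in KO, from -0.58 to -0.05 in WT, and from +0.18 to +0.97 for the difference of the KO effects. On log2(FPKM + 1) the medians were -0.26 at day 14 and -0.60 at day 0, on a scale that shrinks low genes. Sign changes were found in comparisons of the days, where no member was called. For S1pr5 in KO the day change was -0.046 and turned to +0.014 with limma-voom, +0.0014 on log2(FPKM + 1) with and without a filter, and +0.0217 on log2(FPKM + 0.1); the difference of its KO effects was -0.025 and turned to +0.021, +0.026, +0.026 and +0.054 in those fits. Leaving out libraries gave ranges for the KO day change of -0.37 to +0.80 for Ncr1, -0.20 to +0.48 for Klrb1c, -0.056 to +0.20 for Eomes, -0.34 to +0.24 for Il2rb, -0.21 to +0.82 for Prf1, -0.0094 to +0.97 for Nkg7, -0.10 to +0.72 for Ccl5, -0.077 to +0.74 for Klri2 and -0.43 to +0.49 for S1pr5. For the WT day change they were -0.45 to +0.10 for Nkg7 and -0.11 to +0.15 for S1pr5, and for the difference of the KO effects -0.032 to +0.54 for Il2rb, -0.0013 to +1.03 for Prf1 and -0.41 to +0.51 for S1pr5. The cause was not tested. With 2 KO day 0 libraries, an exact test at day 0 cannot give less than p = 0.0667.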
